A study of Mus musculus with 5 samples.

Results

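The genes described here are 8 transcription factor genes of myeloid development, chosen by symbol among the 32285 genes listed for each library: the C/EBP family members Cebpa, Cebpb, Cebpd, Cebpe and Cebpg, the ETS factor gene Spi1, which encodes PU.1, and the zinc finger genes Gfi1 and Klf4. They were followed in single-cell RNA libraries of GFP+c-Kit+ cells sorted from spleens of C57BL/6 mice that had received GFP-marked CMM leukaemia cells by vein, a model of acute myeloid leukaemia with inv(16) according to the series title. Once about 1% of blood cells were GFP+ leukaemia cells, mice were injected by vein every other day, 3 times in all, with CpG-STAT3dODN, which couples a CpG stimulus of the receptor TLR9 to a double-stranded decoy that binds STAT3 (4 libraries, labelled Decoy 2, Decoy 3, Decoy 5 and Decoy 6), or with PBS (1 library). By these labels all libraries share the engrafted leukaemia and the sort, and they differ in the injected agent. The cells of the leukaemic class described below also differed in number, from 0 in Decoy 5 to 13547 in PBS. The labels do not say how many mice a library holds, nor that the libraries came from separate mice, so the p-values measure the spread between these Decoy libraries, which may be technical, and the PBS group has no spread of its own.

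The C/EBP proteins are basic leucine zipper factors that bind DNA as dimers with each other. C/EBPα is known for turning multipotent cells towards the granulocyte and monocyte fates, C/EBPβ for emergency granulopoiesis and macrophage genes, C/EBPδ for inflammatory responses, and C/EBPε for the late granules of neutrophils and eosinophils, while C/EBPγ lacks a strong activation domain and acts mainly as a partner in stress responses. PU.1 is needed for macrophages, neutrophils, dendritic cells and B cells and acts at graded doses, KLF4 promotes monocytes, and GFI1 is a repressor needed for neutrophils. The inv(16) rearrangement of human leukaemia joins CBFB, the partner of RUNX1, to a myosin gene.

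All 8 genes matched the GENCODE vM21 annotation of GRCm38, the assembly also called mm10. Cebpa (ENSMUSG00000034957) lies on chromosome 7 at 35119293 to 35121928 on the + strand, and Cebpg (ENSMUSG00000056216) on the same chromosome at 35046422 to 35056573 on the − strand, with 62719 bases between them. Cebpb (ENSMUSG00000056501) lies on chromosome 2 at 167688915 to 167690418 (+), Cebpd (ENSMUSG00000071637) on chromosome 16 at 15887286 to 15891031 (+), and Cebpe (ENSMUSG00000052435) on chromosome 14 at 54710360 to 54712174 (−). Spi1 (ENSMUSG00000002111) lies on chromosome 2 at 91082390 to 91115756 (+), Gfi1 (ENSMUSG00000029275) on chromosome 5 at 107716657 to 107726036 (−), and Klf4 (ENSMUSG00000003032) on chromosome 4 at 55527143 to 55532466 (−). The 3′ library counts UMIs near the ends of transcripts and does not separate isoforms.

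The promoters of the neighbours Cebpa and Cebpg are shown because this neighbouring pair differed in the comparisons that follow: Cebpg was at similar levels in most classes, and Cebpa was nearly absent from the leukaemic cells. Each sequence is the RefSeq promoter window on GRCm38.p6, 250 bases before to 50 after the annotated start, read 5′ to 3′ on the gene's strand, at chr7:35119043-35119342 (+) for Cebpa and chr7:35056517-35056816 (−) for Cebpg. Capitals mark the letters TATAAA and CCAAT, searched on both strands, so that CCAAT on the other strand reads ATTGG.
Cebpa: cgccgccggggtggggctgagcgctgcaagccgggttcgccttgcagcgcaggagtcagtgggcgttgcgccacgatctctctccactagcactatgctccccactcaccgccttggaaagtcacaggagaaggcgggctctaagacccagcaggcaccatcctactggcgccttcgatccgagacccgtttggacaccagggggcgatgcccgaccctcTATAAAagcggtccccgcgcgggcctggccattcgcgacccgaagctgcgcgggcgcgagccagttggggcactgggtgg
Cebpg: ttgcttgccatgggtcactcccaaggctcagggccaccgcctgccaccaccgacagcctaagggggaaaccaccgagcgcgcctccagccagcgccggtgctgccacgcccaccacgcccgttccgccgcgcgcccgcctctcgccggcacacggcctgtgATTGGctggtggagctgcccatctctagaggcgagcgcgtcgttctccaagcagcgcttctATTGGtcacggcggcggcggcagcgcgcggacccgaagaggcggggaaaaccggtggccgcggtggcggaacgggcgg
The Cebpa window held 1 TATAAA that began 30 bases before the start, and the Cebpg window held 2 CCAAT, beginning 89 and 28 bases before the start. Over 32851 promoter windows of the same length, 13.6% held TATAAA and 37.4% held CCAAT. None of the 6 windows listed for Cebpa, Cebpb, Cebpg, Gfi1 and Klf4 held the STAT palindrome TTCNNNGAA, which 8.30% of all windows held, or the PU.1 letters GAGGAAGT (3.20%), and 1 window of Gfi1 held the C/EBP letters TTGCNNAA (10.8%). CpG dinucleotides numbered 29 in the Cebpa window and 38 in the Cebpg window, against a median of 7 over all windows.

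After filters on cells, 31040 cells remained: 6250, 1933, 3607 and 3216 in Decoy 2, Decoy 3, Decoy 5 and Decoy 6, and 16034 in PBS, with 54338620 to 232694617 UMIs per Decoy library and 509207914 in PBS. Clusters were named from marker genes, with the 8 genes left out of the clustering. The leukaemic class (Fcer1a, Ms4a2, Cpa3, Gata2 and Kit) held 4837, 341, 0 and 1281 cells in Decoy 2, Decoy 3, Decoy 5 and Decoy 6 and 13547 in PBS. Xist UMIs without Y-linked UMIs were found in 19715 of its 20006 cells and Y-linked UMIs without Xist in 0, whereas the progenitor-like, macrophage-like, neutrophil-like, dendritic-like, B cell-like and T cell-like classes each held 128 to 1619 Y-linked cells and 4 to 18 Xist cells. These host-like classes were present although the labels give the cells as sorted for GFP and c-Kit. Granulocyte-monocyte progenitor-like cells numbered 860, macrophage-like cells 2349, neutrophil-like cells 623, B cell-like cells 2352 and T cell-like cells 536. A cluster of 1785 cells with embryonic globin transcripts, 1706 of them Xist cells, was kept apart from the leukaemic class because the eosinophil marker Prg2 was among its leading genes. That Prg2 came almost wholly from a few cells with many Cebpe UMIs, described below, and does not mark the cluster as a whole.

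Spi1 and Cebpg were the members that the leukaemic cells held at more than a trace. Levels are given as CPM, the UMIs of a gene scaled to the total of all UMIs in the summed cells of a class in a library, and classes are compared as a description without a test, because the same cells were used to define them. Spi1 was at 76.4, 82.3 and 90.1 CPM in the leukaemic class of Decoy 2, Decoy 3 and Decoy 6 and at 80.6 in PBS. In progenitor-like cells it was at 304 to 379 CPM in the 4 Decoy libraries and 425 in PBS, in macrophage-like cells at 403 to 476 and 570, in neutrophil-like cells at 349 to 429 and 335, and in dendritic-like cells at 362 to 415 and 513. The leukaemic level thus lay below the range of each of these 4 classes in every library, close to that of B cell-like cells (52.5 to 78.2 CPM in Decoy, 90.8 in PBS), and above the erythroid progenitor cluster (3.77 to 11.7 CPM in Decoy, 5.97 in PBS).

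Spi1 was spread over most leukaemic cells rather than a few. At least 1 Spi1 UMI was found in 89.6%, 88.9% and 87.4% of leukaemic cells in Decoy 2, Decoy 3 and Decoy 6 and in 87.6% in PBS, at median depths of 38614, 32382, 28571 and 32092 UMIs. T cell-like cells, which should lack the gene, had a Spi1 UMI in 11% to 30.4% of cells in Decoy and 4.69% in PBS at shallower depth (medians of 6733 to 12140 UMIs in Decoy and 5840 in PBS). They are not a clean baseline, since they also held transcripts of other classes. Xist in them was at 288, 0.729, 0 and 174 CPM in Decoy 2, Decoy 3, Decoy 5 and Decoy 6 and 278 in PBS. S100a8 was at 22.2 to 1044 CPM in Decoy and 6.19 in PBS. The part of such transcripts in the T cell-like shares was not tested. With each cell thinned to 5000 UMIs the shares were 32.6%, 34.4% and 36.5% of leukaemic cells in Decoy and 33.7% in PBS, against 2.78% to 13.5% of T cell-like cells in Decoy and 0% in PBS. Shallower cells were left out, so that 4773, 340 and 1275 leukaemic cells remained in Decoy and 13448 in PBS, and 72 to 125 T cell-like cells in each Decoy library and 38 in PBS.

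Within the leukaemic class Spi1 was graded between its 3 clusters. The cluster of lowest level had 68.6, 65.8 and 78.0 CPM in Decoy 2, Decoy 3 and Decoy 6 and 72.4 in PBS, the next 86.4, 90.9 and 96.3 in Decoy and 92.3 in PBS, and the highest 123, 126 and 128 in Decoy and 121 in PBS. The order was the same in all 4 libraries, and the 3 ranges did not overlap. This describes Spi1 alone, since other genes were not counted for such an order. Depth ran the other way, with medians of 35253 to 43648 UMIs per cell in the first of these clusters and 14403 to 22182 in the last; its part in the order was not tested. The embryonic-globin cluster was at 108, 113 and 139 CPM in Decoy and 104 in PBS.

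Cebpg, the C/EBP member without strong activating function, was nearly even across the classes. It was at 31.9, 34.8 and 31.9 CPM in leukaemic cells of Decoy 2, Decoy 3 and Decoy 6 and 34.6 in PBS, at 41.4 to 43.7 in progenitor-like cells of Decoy and 44.5 in PBS, and at 34.0 to 40.6 in macrophage-like cells of Decoy and 46.3 in PBS. Neutrophil-like cells had 24.1 to 40.3 CPM in Decoy and 33.1 in PBS, T cell-like cells 34.8 to 42.3 and 45.8, and B cell-like cells 26.2 to 38.0 and 41.7. Most of these neighbours overlapped between libraries; the haemoglobin-rich cluster, measured in PBS, was highest at 74.9 CPM.

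The C/EBP members with activating function were almost absent from leukaemic cells. Cebpa, the factor of granulocyte and monocyte commitment, was at 0.0728, 0.172 and 0.129 CPM in leukaemic cells of Decoy 2, Decoy 3 and Decoy 6 and 0.0329 in PBS. Progenitor-like cells had 13, 25.6, 25.1 and 21.1 CPM in Decoy 2, Decoy 3, Decoy 5 and Decoy 6 and 24.1 in PBS. Macrophage-like cells followed, at 8.47 to 16.3 CPM in Decoy and 30.5 in PBS, and neutrophil-like cells were lower, at 0 to 5.57 CPM in Decoy and 4.96 in PBS. A Cebpa UMI was found in 0.145%, 0.587% and 0.390% of leukaemic cells in Decoy and 0.111% in PBS, below the share of T cell-like cells in 3 of the 4 libraries (2.53%, 2.20% and 0% in Decoy 2, Decoy 3 and Decoy 6, 6.25% in PBS), so these UMIs are not read as expression. The T cell-like shares carry the limit given above, that those cells also held transcripts of other classes.

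Cebpb, which serves inflammatory and macrophage genes, was the most abundant C/EBP transcript of progenitor-like and macrophage-like cells. It was at 1.69, 2.33 and 3.73 CPM in leukaemic cells of Decoy 2, Decoy 3 and Decoy 6 and 1.43 in PBS. Progenitor-like cells had 373, 430, 452 and 565 CPM in Decoy 2, Decoy 3, Decoy 5 and Decoy 6 and 789 in PBS, and macrophage-like cells 436 to 568 in Decoy and 599 in PBS. Neutrophil-like cells were lower, at 137 to 206 CPM in Decoy and 121 in PBS, and T cell-like cells had 52.5 to 81.3 and 52.0. A Cebpb UMI was found in 5.21% to 8.90% of leukaemic cells in Decoy and 4.06% in PBS, below the 43.7% to 50.5% and 29.7% of T cell-like cells.

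Cebpd and Cebpe were highest in neutrophil-like cells. Cebpd was at 0.483, 0.776 and 0.699 CPM in leukaemic cells of Decoy 2, Decoy 3 and Decoy 6 and 0.368 in PBS, against 186 to 234 in neutrophil-like cells of Decoy and 201 in PBS, 54.8 to 94.0 in progenitor-like cells of Decoy and 101 in PBS, and 40.0 to 53.4 in macrophage-like cells of Decoy and 61.0 in PBS. Cebpe, the late granule factor, was at 0.208, 0.172 and 0.104 CPM in leukaemic cells of Decoy and 0.138 in PBS. Neutrophil-like cells had 527, 535, 563 and 572 CPM in Decoy 2, Decoy 3, Decoy 5 and Decoy 6 and 526 in PBS, a narrow range, and progenitor-like cells had 34.3 to 47.4 in Decoy and 30.3 in PBS. Macrophage-like cells were at 2.63 to 4.8 CPM in Decoy and 3.39 in PBS.

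Of the zinc finger genes, Klf4 was highest in progenitor-like cells and Gfi1 in neutrophil-like cells, where its range overlapped that of T cell-like cells. Klf4, the monocyte factor, was at 0.270, 0.776 and 0.207 CPM in leukaemic cells of Decoy 2, Decoy 3 and Decoy 6 and 0.283 in PBS. Progenitor-like cells had 97.0, 144, 151 and 152 CPM in Decoy 2, Decoy 3, Decoy 5 and Decoy 6 and 93.5 in PBS, macrophage-like cells 16.4 to 30.7 and 39.6, and neutrophil-like cells 0 to 2.62 and 0. Gfi1, the neutrophil repressor, was at 0.0416, 0 and 0.0518 CPM in leukaemic cells of Decoy 2, Decoy 3 and Decoy 6 and 0.0373 in PBS. The Decoy 3 value rests on 0 UMIs, which allows up to 0.259 CPM. Neutrophil-like cells had 12.3 to 24.9 CPM of Gfi1 in Decoy and 17.4 in PBS, T cell-like cells 7.05 to 16.1 and 6.19, and progenitor-like cells 3.38 to 6.36 and 4.97.

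**Figure D1:**
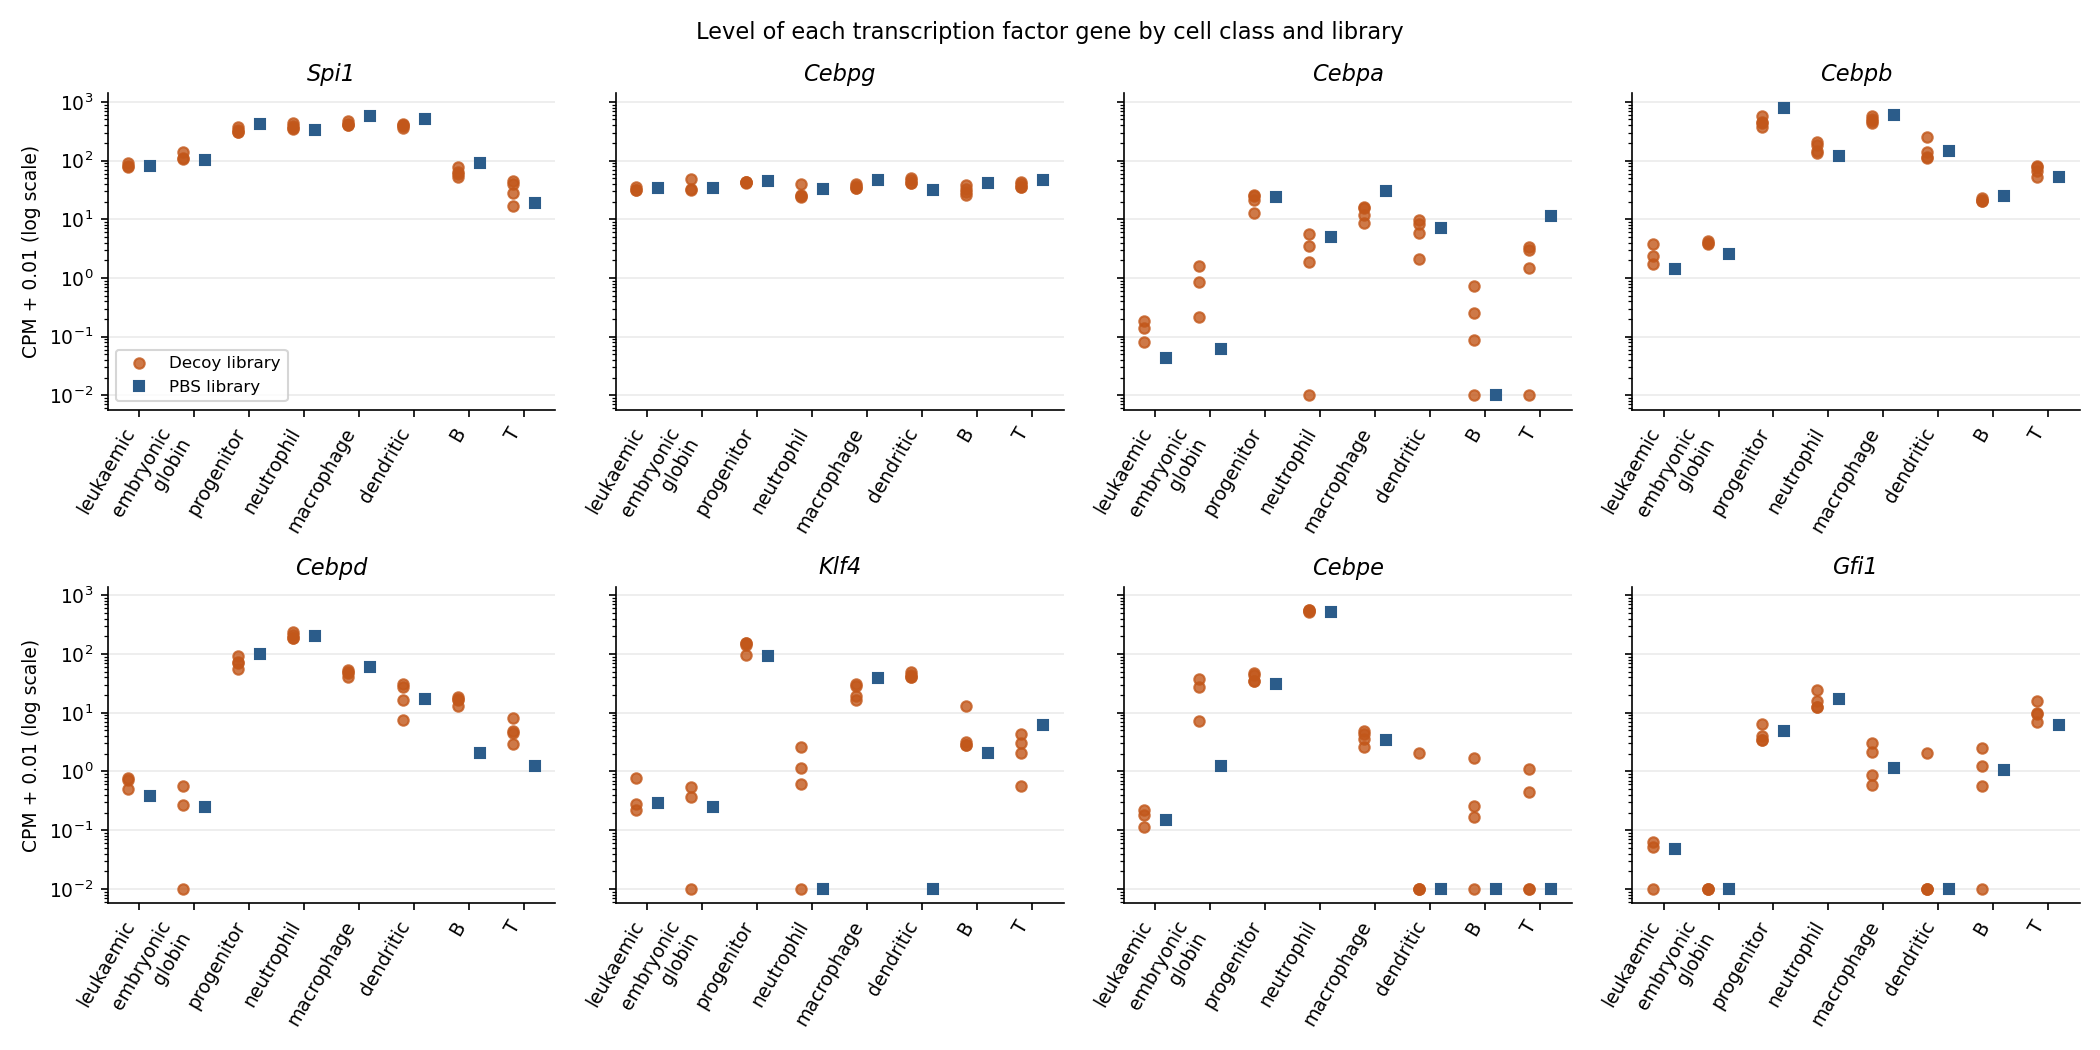
Level of each gene (CPM + 0.01, log axis) in 8 classes, with 1 circle per Decoy library on the left of each class and 1 square for the PBS library on the right. Cebpg is nearly level across classes, Spi1 in leukaemic cells lies at 76.4 to 90.1 CPM, and the other 6 genes are under 4 CPM there and reach their highest levels in progenitor-like or mature myeloid classes.

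A partition that used neither the 8 genes nor the clusters was then tested. Cells with Xist UMIs and no Y-linked UMI were set against cells of the same library with Y-linked UMIs and no Xist UMI, in the 4 libraries with at least 50 cells of both kinds (Decoy 2, Decoy 3, Decoy 6 and PBS). Of the 8 genes, 7 were lower in Xist cells and 0 higher at an adjusted p under 0.05 (edgeR quasi-likelihood test with the library as a block, Benjamini-Hochberg adjustment over 13361 genes), where 66.9% of all genes tested were called and 33.9% were called lower. The median log2 fold change of the 8 was -6.16, against 0.01 over all genes tested.

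Klf4 had 0.352, 1.43 and 0.257 CPM in Xist cells of Decoy 2, Decoy 3 and Decoy 6 and 0.272 in those of PBS, against 60.9, 38.3 and 33.9 and 32.2 CPM in Y-linked cells, a log2 fold change of -6.69 ± 0.53 (SE). The log2 fold change was -6.60 ± 0.75 for Cebpa, -6.59 ± 0.59 for Cebpb, -6.23 ± 0.36 for Gfi1, -6.10 ± 0.51 for Cebpd and -5.03 ± 0.97 for Cebpe. These 6 genes had edgeR adjusted p of 0.000116 to 0.00656. The ranges of Xist and Y-linked cells did not overlap for any of these 6 genes, a count not set against all genes tested.

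Spi1 differed far less. It had 79.6, 88.8 and 94.9 CPM in Xist cells of Decoy 2, Decoy 3 and Decoy 6 and 82.4 in those of PBS, against 295, 224 and 245 and 250 CPM in Y-linked cells, a log2 fold change of -1.54 ± 0.14 (SE, edgeR adjusted p = 0.000455). Cebpg was the exception among the 8, with 32.1, 35.7 and 31.9 CPM in Xist cells of Decoy and 34.6 in those of PBS against 38.0, 37.3 and 36.0 and 58.3 CPM in Y-linked cells. Its log2 fold change of -0.30 ± 0.19 (SE) did not pass (edgeR adjusted p = 0.211). All 4 libraries were lower in Xist cells for Cebpg too, by little in the Decoy libraries. The Y-linked cells are a mixture of many classes, whose shares differ between libraries, and Xist cells include a few placed in host classes (18 macrophage-like and 18 neutrophil-like cells), so these values do not describe 1 cell type against another.

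**Figure D2:**
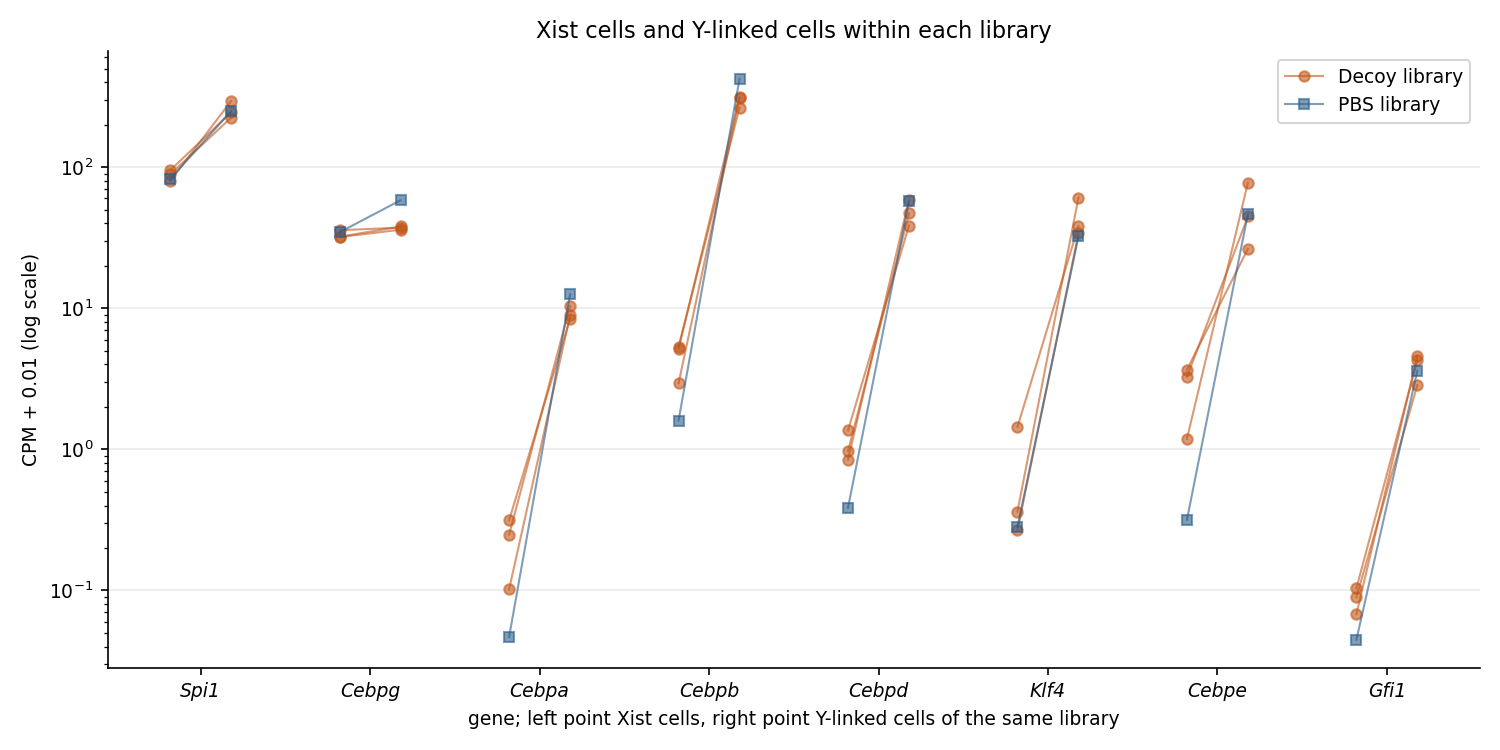
CPM + 0.01 (log axis) of each gene in Xist cells (left point) and Y-linked cells (right point), joined by a line for each of 3 Decoy libraries (circles) and the PBS library (squares). The lines are steep for 6 genes, shallower for Spi1 and close to level for Cebpg.

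Receptors and other genes known to be regulated by C/EBP factors and PU.1 were mostly low with them. Of 12 such genes, 10 were lower and 1 higher in Xist cells in that test, where 33.9% of 13361 genes were called lower and 66.9% in either direction. The median log2 fold change of the 12 was -6.69, against 0.01 over all genes. Il1r2, a decoy receptor for interleukin-1, had -7.84 ± 1.00, Il6ra, the interleukin-6 receptor, -7.79 ± 0.95, Tlr4, the endotoxin receptor, -7.37 ± 0.88, and Itgam, the CD11b integrin, -7.24 ± 0.79 (log2 fold change ± SE). The G-CSF receptor gene Csf3r, a classic C/EBPα target, had -6.69 ± 0.78. Csf2rb, the shared receptor chain for GM-CSF, IL-3 and IL-5, was the 1 higher gene at 2.01 ± 0.25.

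Of 25 partners and antagonists of these factors, all tested, 8 were lower and 7 higher in that test, a share near the 66.9% called over all genes (33.9% lower), with a median log2 fold change of -0.30. Trib2 and Trib1, whose proteins promote the breakdown of C/EBPα, were lower at -8.71 ± 0.52 and -6.05 ± 0.30 (log2 fold change ± SE). Among the Y-linked mixture Trib2 was mainly lymphoid, at 10.0 to 34.3 CPM in B cell-like and T cell-like cells. Macrophage-like, neutrophil-like and dendritic-like cells had 0 to 2.83 CPM of it. Irf8, the monocyte and dendritic cell factor, was lower at -7.05 ± 0.70 and Batf3 at -6.46 ± 0.50. The higher genes were led by factors of the megakaryocyte, erythroid and mast cell lines: Gata1, which antagonises PU.1, at 2.90 ± 0.34, Gfi1b at 2.61 ± 0.29, Runx1 at 2.53 ± 0.08 and Gata2 at 1.61 ± 0.31. Cbfb differed by 0.06 ± 0.07 (adjusted p = 0.485) and Ddit3, the stress partner of C/EBP proteins, by -0.53 ± 0.90 (adjusted p = 0.622), neither past the threshold in edgeR.

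Within the progenitor-like class the 8 genes varied between its 8 sub-clusters, described here over all libraries without a test. The sub-cluster with the primary granule markers Mpo, Elane, Ctsg and Prtn3 (188 cells) had 32.3 CPM of Cebpa, 318 of Cebpb and 9.24 of Gfi1. The sub-cluster with the neutrophil granule genes Ltf, Camp and Ngp and the monocyte genes Ly6c2, Chil3 and Fn1 (208 cells) had 11.6 CPM of Cebpa, 545 of Cebpb and 211 of Klf4, the highest Klf4 value. A sub-cluster of 36 cells had mixed leading genes and is left unnamed: the mast cell protease genes Mcpt4, Mcpt1 and Cma1, then Cox6a2, Dntt, Gzmb, Ly6d and Sox4, and the stem and progenitor genes Cd34 and Flt3. It was lowest in Cebpb (77.6 CPM), Cebpd (5.64) and Spi1 (146) and highest in Gfi1 (9.88). Klf4 in it was 6.35 CPM.

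A sub-cluster of 22 cells with the basophil markers Mcpt8, Prss34 and Cd200r3 stood apart. It had 224 CPM of Cebpa, the highest value of that gene in any sub-cluster, and 0 UMIs of Cebpe and Klf4. That Cebpa value rests on 77 UMIs. Its median depth was 10814 UMIs per cell, below the 24068 to 82209 of the other sub-clusters. A further 22 cells, 19 of them from Decoy 2, had erythroid markers with Xist among their leading genes and 0.534 CPM of Cebpa.

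**Figure D3:**
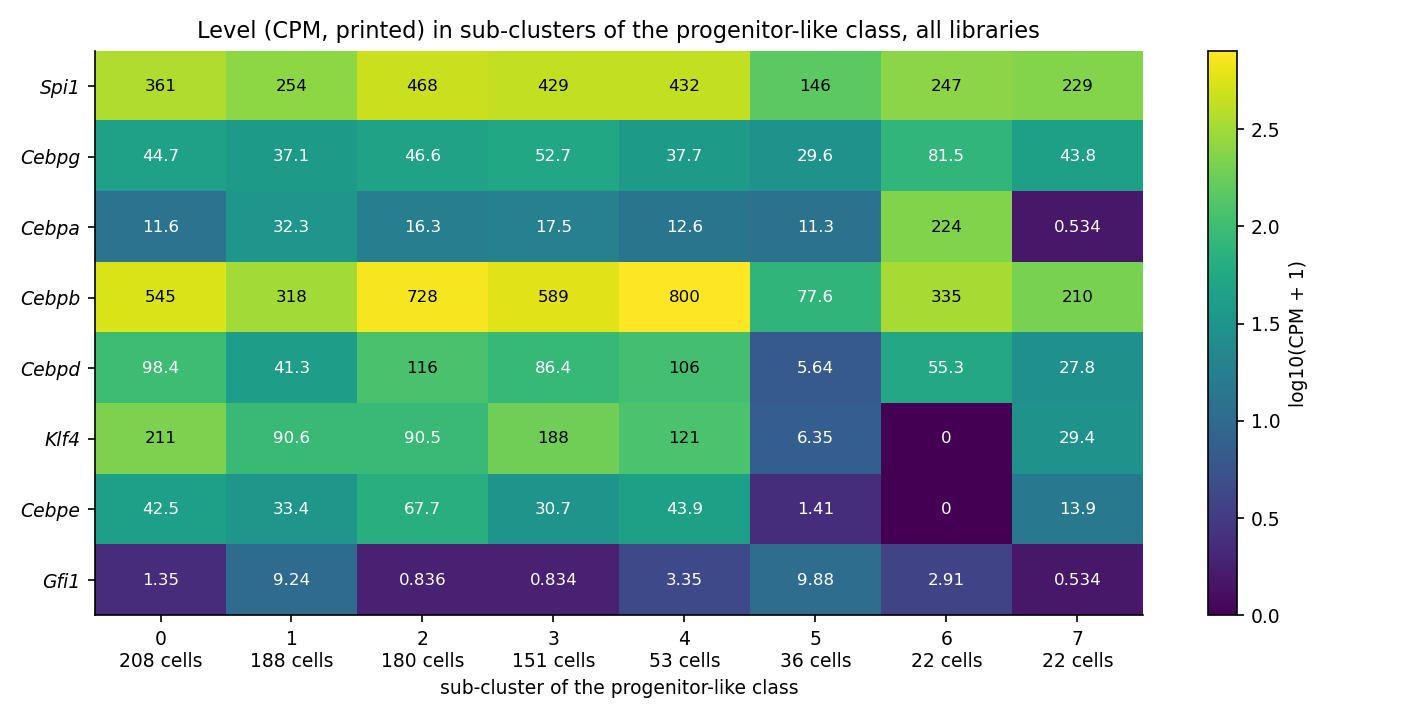
Level of each gene (CPM printed in each cell, colour as log10 of CPM + 1) in the 8 sub-clusters of the progenitor-like class, summed over all libraries, with the number of cells under each. Cebpa is highest in sub-cluster 6 (basophil markers, 224 CPM), Klf4 in sub-cluster 0 (211 CPM) and Gfi1 in sub-clusters 5 and 1 (9.88 and 9.24 CPM).

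The genes whose levels were most like each member were found by Pearson correlation of log2(CPM + 1) over 48 library-by-class profiles, which share libraries and depth. Spi1 was closest to Fes, a myeloid tyrosine kinase gene (r = 0.946), Nfam1 (0.931) and Hsd17b11 (0.919), and Cebpd to Anxa1 (0.939), Ccr1 (0.939) and Milr1 (0.934). Cebpe was closest to Olfml2b (0.925), Fcnb, a ficolin of neutrophil granules (0.924), and Rhou (0.915), and Cebpb to Gbp2 (0.917), Tnfrsf1a (0.901) and Ifi204 (0.885). Cebpa was closest to Ccl9 (0.887), Il6ra (0.876) and Atp11a (0.874), Gfi1 to Mgst2 (0.888), Pglyrp1 (0.873) and Tmem71 (0.865), and Klf4 to Gria3 (0.877), F13a1 (0.872) and Ctsc (0.854). Cebpg had the weakest neighbours, Tcea1 (0.739), Slc25a51 (0.735) and Dnttip1 (0.733). Between members, Cebpg had correlations of -0.35 to 0.28 with the other 7, while Cebpa and Cebpb had 0.772 and Cebpb and Cebpd 0.766.

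Whether the decoy changed these genes inside the leukaemic cells was asked with 3 Decoy libraries, since Decoy 5 had no leukaemic cells, against PBS. Of the 8 genes 7 passed the filter on low counts, and 0 of these 7 were called (edgeR, adjusted p under 0.05), where 0.761% of 14193 genes were called. Cebpb, at 1.69, 2.33 and 3.73 CPM in Decoy 2, Decoy 3 and Decoy 6 and 1.43 in PBS, was higher in all 3 Decoy libraries, with a log2 fold change of 0.91 ± 0.36 (SE, edgeR adjusted p = 0.438). Without Decoy 2 its log2 fold change was 1.24 ± 0.29 (edgeR adjusted p = 0.0258), and it was then the 1 member called, where 3.49% of genes were called.

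The other members also missed the threshold in that fit. Cebpa had a log2 fold change of 1.65 ± 0.95 (SE), Cebpd of 0.80 ± 0.43, Cebpe of 0.40 ± 0.63, Klf4 of 0.28 ± 0.60 and Spi1 of 0.12 ± 0.12, with edgeR adjusted p between 0.628 and 0.945. Cebpg, at 0.00 ± 0.11, had an adjusted p of 1.00. Among the 12 receptors 0 of 9 tested were called and among the partners 0 of 24, Csf3r having 3.45 ± 1.05 (adjusted p = 0.230) and Irf8 1.26 ± 0.50 (adjusted p = 0.433). Irf8 stood at 0.489, 1.03 and 1.11 CPM in leukaemic cells of Decoy and 0.355 in PBS.

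Markers of host myeloid cells moved in the same direction within the leukaemic class. The summed level of 10 neutrophil markers was 80.7, 40.9 and 50.1 CPM in leukaemic cells of Decoy 2, Decoy 3 and Decoy 6 and 16.4 in PBS, with 1 marker at 0 in Decoy 3, and that of 10 macrophage markers was 8.78, 20.2 and 29.6 CPM in Decoy and 6.68 in PBS, with none at 0. Host neutrophil-like, macrophage-like and progenitor-like cells were also a larger share of the Decoy libraries. The part of these transcripts in the Cebpb and Csf3r values was not tested. Leukaemic cells with no Y-linked UMI numbered 4806, 333 and 1267 in Decoy and 13466 in PBS, nearly all of the class. Their Cebpb was at 1.66, 2.31 and 3.74 CPM in Decoy and 1.41 in PBS. With so few cells left out, these values cannot show the part of host transcripts.

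In progenitor-like cells Cebpb was lower in all 4 Decoy libraries, and 0 of the 8 genes were called, where 1.2% of 11201 genes were. Cebpb averaged 455 ± 80.5 CPM in Decoy (SD, n = 4) and was 789 in PBS, a log2 fold change of -0.79 ± 0.19 (SE, edgeR adjusted p = 0.104). Its adjusted p was 0.0343 without Decoy 2 (4.61% of genes called), 0.0432 without Decoy 6 (0.924% called) and 0.00202 with DESeq2 (2.08% called). Klf4, at 136 ± 26.3 CPM in Decoy (SD, n = 4) and 93.5 in PBS, had a log2 fold change of 0.55 ± 0.25 (adjusted p = 0.354), which became 0.68 ± 0.12 (adjusted p = 0.0190) without Decoy 2. Spi1 had -0.36 ± 0.13 and the remaining members between -0.48 and 0.41, with edgeR adjusted p of 0.256 to 0.883.

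In the same cells Irf8 passed, at 235, 307, 331 and 316 CPM in Decoy 2, Decoy 3, Decoy 5 and Decoy 6 and 133 in PBS, a log2 fold change of 1.17 ± 0.20 (edgeR adjusted p = 0.0496). Id2, an inhibitor of E proteins, fell by 1.37 ± 0.16 and Il1r2 by 3.51 ± 0.39 on the log2 scale (edgeR adjusted p = 0.0200 for each). Runx1 (0.01 ± 0.11) and Cbfb (-0.00 ± 0.13) did not pass. In all, 1 of 12 receptors was lower, and of the 23 partners tested 1 was higher and 1 lower, where 1.2% of 11201 genes were called.

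The mix of sub-clusters differed between the groups in this class. The sub-cluster with the highest Cebpb (800 CPM, with the neutrophil markers S100a8, S100a9, Cxcr2 and Mmp8) held 1 cell from Decoy and 52 of the 104 cells from PBS. Il1r2 was among its leading genes. The part of this mix in the lower Il1r2, and in the other changes of the class, was not tested. In the 1 sub-cluster that held at least 20 cells of every library, Cebpb was at 518, 706, 691 and 785 CPM in Decoy 2, Decoy 3, Decoy 5 and Decoy 6 and 1139 in PBS, and Klf4 at 57.6, 105, 114 and 124 and 56.8. Cebpe there was at 67.4, 82.6, 67.2 and 90.0 CPM in Decoy and 27.0 in PBS. These values come from 25 to 47 cells of each Decoy library and 30 of PBS and were not tested, and the leading genes of that sub-cluster included haemoglobin genes and Gzma.

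**Figure D4:**
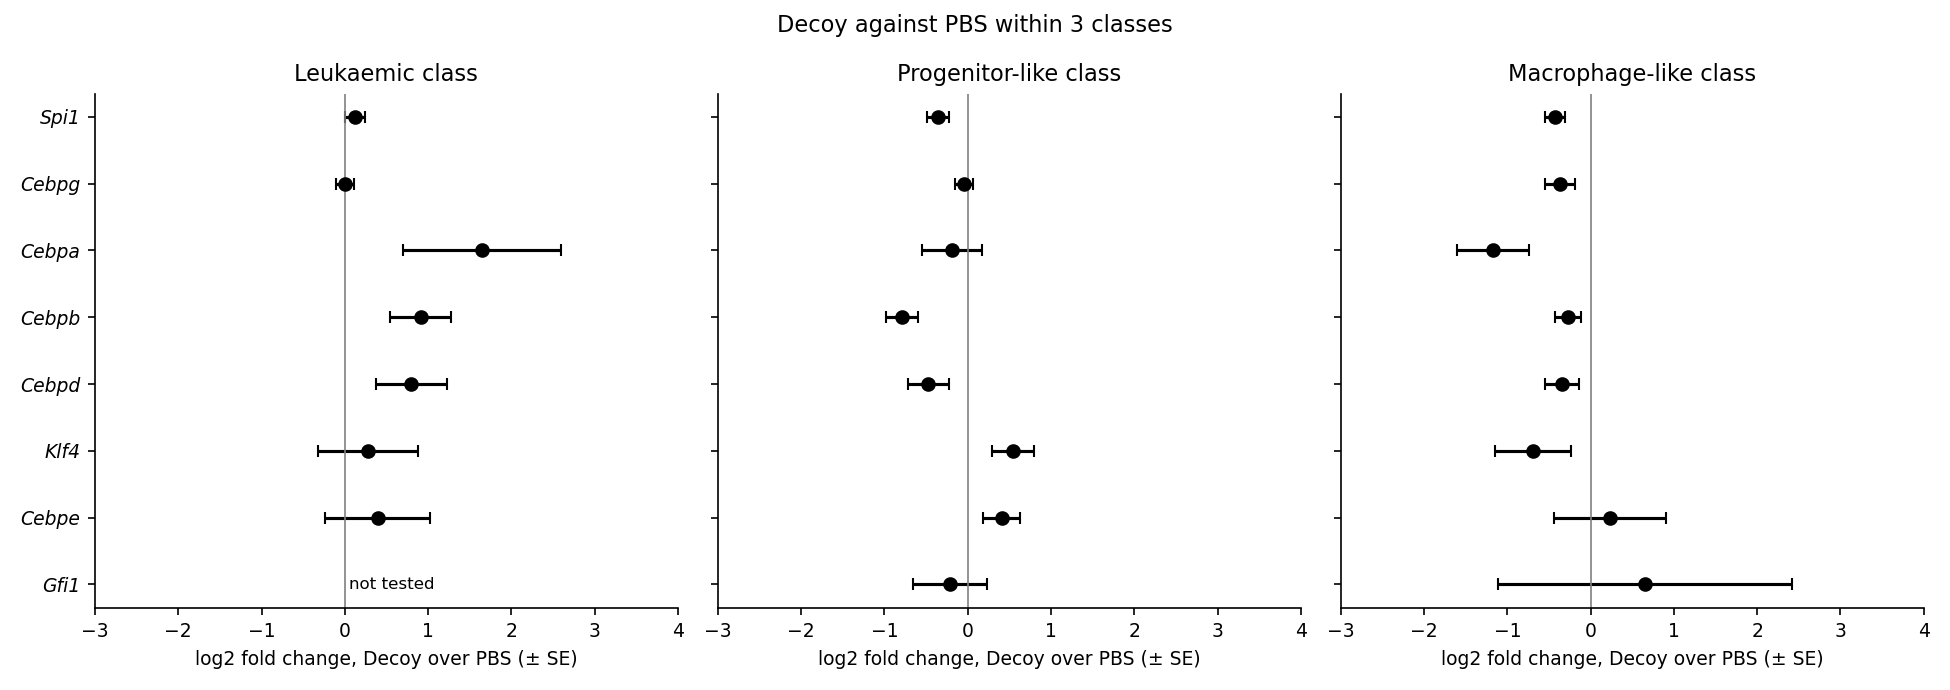
Log2 fold change of Decoy over PBS with its standard error (horizontal bars) for each gene in the leukaemic, progenitor-like and macrophage-like classes, from edgeR. None of the points passed the adjusted threshold; Gfi1 was not tested in leukaemic cells, and Cebpb lies at 0.91 in leukaemic and -0.79 in progenitor-like cells.

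Mature myeloid classes gave no member past the threshold. In macrophage-like cells 0 of 8 members and 0% of 12849 genes were called. There Spi1 averaged 427 ± 33.4 CPM in Decoy (SD, n = 4) and was 570 in PBS, a log2 fold change of -0.42 ± 0.12 (edgeR adjusted p = 0.172), and DESeq2 called it alone among the members (adjusted p = 0.0424, with 2.08% of genes called). At a finer clustering (resolution 1.0) its sign turned, to 0.13 ± 0.13 (edgeR adjusted p = 0.546). Cebpa, at 13.1 ± 3.70 CPM in Decoy (SD, n = 4) and 30.5 in PBS, had -1.18 ± 0.44 (edgeR adjusted p = 0.278). With doublets removed at the expected rate this became -0.49 ± 0.50 (edgeR adjusted p = 0.711), and at the finer clustering -0.39 ± 0.44 (edgeR adjusted p = 0.604). In neutrophil-like cells 0 of 7 members tested and 0% of 9616 genes were called, and the members' log2 fold changes lay between -0.47 and 0.73. Cebpe there was 549 ± 21.6 CPM in Decoy (SD, n = 4) and 526 in PBS. Xist in neutrophil-like cells was at 153, 0, 0 and 126 CPM in Decoy 2, Decoy 3, Decoy 5 and Decoy 6 and 226 in PBS. The part of leukaemic transcripts in the levels of this class was not tested.

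In lymphoid cells Cebpd stood out. B cell-like cells had 18.6, 16.7, 17.1 and 13 CPM in Decoy 2, Decoy 3, Decoy 5 and Decoy 6 and 2.09 in PBS, a log2 fold change of 2.97 ± 0.64 (SE, edgeR adjusted p = 0.0265). It was the 1 member called of 6 tested, where 2.84% of 10584 genes were called. The PBS value rests on 2 UMIs, and the ratio of summed Decoy to PBS levels was 7.83 with a counting interval of 2.15 to 64.9 (95%, exact). The call was lost with DESeq2 (adjusted p = 0.132, 1.76% of genes called), with a stricter cell filter (0.0906, 1.6% called) and at a finer clustering (0.0810, 0% called). T cell-like cells had 4.97, 2.92, 8.26 and 4.53 CPM of Cebpd in Decoy and 1.24 in PBS, and 0 of 7 members tested were called there, with 0% of 10113 genes.

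Other genes of the lists moved in B cell-like cells as well. Id2 was higher at 2.62 ± 0.48 and Cybb, a subunit of the phagocyte oxidase, at 0.69 ± 0.15 (log2 fold change ± SE), whereas Trib3 (-3.75 ± 0.87), Atf5 (-2.75 ± 0.43), Klf2 (-1.30 ± 0.21) and Ddit3 (-1.08 ± 0.25) were lower, with edgeR adjusted p of 0.00402 to 0.0377 for these 6 genes. At the finer clustering 0% of 11085 genes were called in B cell-like cells, so none of these 6 kept its call there. Erythroid markers summed to 59.9 to 598 CPM in B cell-like cells of Decoy and 11816 in those of PBS, and their median depth was 6188 to 9094 UMIs in Decoy and 3899 in PBS. The part of either in these values was not tested.

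In erythroid cells 4 members were tested, in Decoy 3, Decoy 5 and Decoy 6 and PBS, and all 4 were called lower in Decoy under TMM scaling, where 44.1% of 10702 genes were called and 25% were called lower. Cebpb had a log2 fold change of -2.94 ± 0.09, Cebpg of -1.93 ± 0.10, Spi1 of -1.38 ± 0.32 and Klf4 of -3.15 ± 0.91 (SE, edgeR adjusted p of 3.35e-07 to 0.0265). The PBS cells lay mostly in the haemoglobin-rich cluster (0, 2, 7 and 7 cells in Decoy 2, Decoy 3, Decoy 5 and Decoy 6 and 547 in PBS). The Decoy cells lay mostly in the Car1 and Klf1 cluster, so this fit cannot tell a change of treatment from a change of cluster. Within the Car1 and Klf1 cluster Cebpb was at 27.0, 44.8, 41.6 and 44.0 CPM in Decoy and 52.2 in PBS, and Cebpg at 38.6, 40.9, 41.7 and 43.1 in Decoy and 50.8 in PBS. Spi1 there was at 11.7, 3.77, 5.05 and 4.05 CPM in Decoy 2, Decoy 3, Decoy 5 and Decoy 6 and 5.97 in PBS, with 4.59 in the haemoglobin-rich cluster of PBS, so its level was not lower in every Decoy library. Klf4 in the Car1 and Klf1 cluster was at 0 to 0.810 CPM in Decoy and 7.46 in PBS. It was at 0 in the haemoglobin-rich cluster of PBS, so its PBS level came from the 40 PBS cells of the Car1 and Klf1 cluster. The difference within that cluster was not tested. Scaling to library totals alone, which moved the median log2 fold change of all genes to 1.26, left Cebpb and Cebpg called (77.5% of genes called), with Spi1 at -0.18 ± 0.31 (edgeR adjusted p = 0.613) and Klf4 at -1.95 ± 0.89 (edgeR adjusted p = 0.0768). DESeq2 called the same pair (20.7% of genes called) and not Spi1 (adjusted p = 0.0856) or Klf4 (adjusted p = 0.0568).

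The difference between classes in the effect of the decoy was tested directly. Decoy 2, Decoy 3, Decoy 6 and PBS held enough cells of both classes. Against progenitor-like cells 0 of 8 members were called, with 0.104% of 12557 genes. The Decoy effect on Cebpb was higher in leukaemic cells by 1.69 ± 0.24 (log2, SE), but the edgeR adjusted p was 0.244, and DESeq2 gave 8.01e-06 with 0.354% of genes called. Against macrophage-like cells 0 of 8 were called, with 0.185% of 13490 genes. Cebpa had a difference of 3.17 ± 0.55 (edgeR adjusted p = 0.0982) and Cebpb of 1.17 ± 0.32 (adjusted p = 0.337), and both were called when the filter on low counts was dropped (1.05% of genes called). The leukaemic side of the Cebpa difference rests on 0.0728 to 0.172 CPM in Decoy and 0.0329 in PBS, UMIs not read as expression above. Its macrophage-like side became smaller with doublet removal and at the finer clustering, as given above.

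Summed over all kept cells, the libraries differed mainly in their mix of classes, and a change of level and a change of mix cannot be told apart there. Cebpb was at 28.4, 202, 246 and 143 CPM in Decoy 2, Decoy 3, Decoy 5 and Decoy 6 and 11.1 in PBS, and Klf4 at 5.0, 28.3, 33.9 and 14.3 and 1.15. All 4 Decoy libraries were above PBS for both. Of the 8 members 0 were called by edgeR, with 0% of 16006 genes called and 1667 genes at an unadjusted p under 0.05. Cebpa, Cebpb, Cebpd, Cebpe, Gfi1 and Klf4 had log2 fold changes of 3.65 to 4.08 and an edgeR adjusted p of 0.465 each, and Cebpg had -0.04 ± 0.13. Without Decoy 2, the Decoy library with the most leukaemic cells, 7 members were called (15.5% of genes called), and DESeq2 called 6 (9.02% called).

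Cebpe behaved unlike the other members in the embryonic-globin cluster, a pattern singled out after its values were seen. It was at 7.22, 37.0 and 27.0 CPM in Decoy 2, Decoy 3 and Decoy 6 and 1.22 in PBS. Few cells carried it. Over the leukaemic class and this cluster together, cells with 5 or more Cebpe UMIs numbered 6 of 5245 in Decoy 2 (0.114%, exact 95% interval 0.0420% to 0.249%), 3 of 379 in Decoy 3 (0.792%, 0.164% to 2.30%) and 4 of 1418 in Decoy 6 (0.282%, 0.0769% to 0.721%), against 3 of 14749 in PBS (0.0203%, 0.00419% to 0.0594%). The share was higher in 3 of 3 Decoy libraries; the exact two-sided permutation test gave p = 0.5, where the smallest p that 3 libraries against 1 allow is 0.25. At 10 or more Cebpe UMIs the counts were 4, 2 and 4 cells in Decoy and 0 of 14749 in PBS, which allows a share of up to 0.0203%.

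These 16 cells held 253 of the 405 Cebpe UMIs of that set (62.5%). Xist was detected in 15 and a Y-linked UMI in 1, and 15 lay in the embryonic-globin cluster. Of the 13 Decoy cells, 8 also carried transcripts of Prg2, which encodes the major basic protein of eosinophil granules, with up to 1552 UMIs in a cell, and 6 carried its relative Prg3. Prg2 summed to 32828 CPM over those 13 cells and 30.4 over the 3 PBS cells, against 0.260 CPM in the other Decoy cells and 0.0121 in the other PBS cells. Spi1 was at 1061 CPM in the 13 Decoy cells and 259 in the 3 PBS cells, against 81.0 and 82.4 CPM in the other cells. The 13 Decoy cells had 4858 to 19491 UMIs each and the 3 PBS cells 36092 to 53464. A cutoff of 5 Cebpe UMIs is thus a lower CPM in the PBS cells, and the 2 sets are not alike.

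Of the other eosinophil markers, Siglecf was at 182 CPM in the 13 Decoy cells and 53.3 in the 3 PBS cells (23.2 and 18 in the other cells), Epx had 1 UMI in Decoy and 0 in PBS, Ear2 1 and 0, and Ear1 and Il5ra 0 in both. The neutrophil progenitor genes Mpo and Elane had 0 UMIs in all 16 cells, and S100a8 was at 67.6 CPM in the 13 Decoy cells and had 0 UMIs in the 3 PBS cells, against 34.3 and 6.10 CPM in the other cells. Gfi1 had 0 UMIs in all 16 cells and Cebpa 1.

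**Figure D5:**
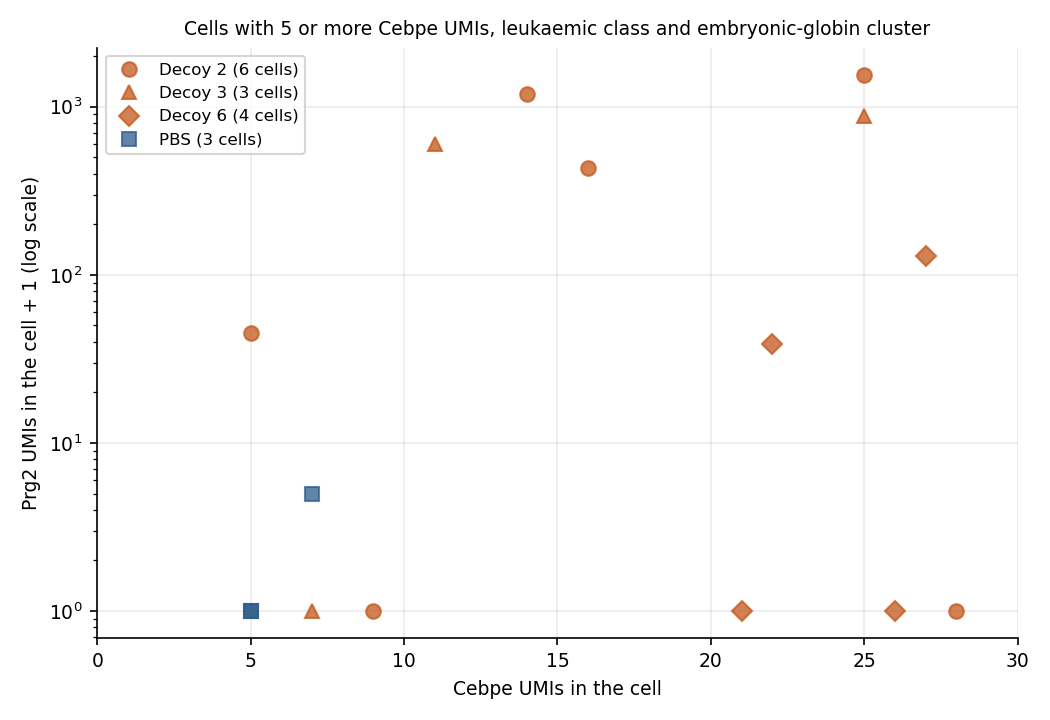
Each point is 1 cell with 5 or more Cebpe UMIs (x axis) from the leukaemic class or the embryonic-globin cluster, with its Prg2 UMIs + 1 on a log axis (y axis), by library. The 13 Decoy cells reach 28 Cebpe and 1552 Prg2 UMIs, and the 3 PBS cells have 5 to 7 Cebpe and 0 to 4 Prg2 UMIs.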

How the data were processed

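Libraries were made with a 10x 3′ kit (v3.1) from sorted spleen cells. The authors deposited UMI counts per gene and cell barcode; per the file headers the count matrices were written by Cell Ranger 5.0.0, while the submitters' processing notes list Cell Ranger 3.1, Seurat 4, DESeq2 and mm10. The deposited counts totalled 56490098 to 234251245 UMIs in the 4 Decoy libraries and 579333323 in PBS.

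Barcodes with at least 500 genes, 1000 UMIs and at most 10% mitochondrial UMIs were kept. Scrublet's automatic threshold marked 0% to 0.412% of cells in Decoy and 6.88% in PBS, against expected rates of 1.96% to 5.49% and 15.5%, so it did not work in Decoy, where doublets remain; removal at the expected rate was tried instead. Library pairs shared 1 to 45 barcodes. Cells were clustered with scanpy 1.11.5 and leidenalg 0.10.2 (2000 variable genes, 30 components, resolution 0.5), and clusters were named from marker lists, so the classes are rebuilt and not the authors'. UMIs were summed per library and class (at least 50 cells of a class in a library for a test, so that Decoy 2 was left out for erythroid cells and Decoy 5 for leukaemic cells; 20 for a level) and tested across all genes with edgeR 4.0.16 (quasi-likelihood, TMM, filterByExpr, R 4.3.3, two-sided, Benjamini-Hochberg threshold 0.05); DESeq2 1.42.0 was an alternative. The edgeR fit was checked on simulated counts for all kept cells, for Xist against Y-linked cells and for the leukaemic and progenitor-like classes. It was also checked for leukaemic against macrophage-like cells. The other comparisons and DESeq2 were not simulated. Counting intervals are exact and, like floors (3 counts), cover counting error only. In bulk sums, fewer cells of a type and less RNA per cell cannot be told apart.

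The genes and lists were chosen with earlier results of these data known. Named genes were the 8 members, the 3 genes most like each, the called genes of both lists (at most 4 per direction and comparison), and Irf8, Runx1, Cbfb, Gata2, Ddit3 and Csf3r. Ddit3 was taken from 1 of 2 overlapping loci that share the symbol, so its counts are uncertain. Strand use in counting is not given in the sources used here. Alternatives were other scalings, filters and clusterings, DESeq2, and leaving out each Decoy library.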

Additional observations from a re-analysis of the deposited data

Results flagged for a closer look

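Within the 64 combinations of gene and class measured in all 4 Decoy libraries, 8 had a library whose gap to the nearest other exceeded Dixon's 95% critical value for 4 samples, where chance flags about 1 in 20. In B cell-like cells Decoy 3 was high for Klf4 (13.3 CPM, against 2.77 to 3.19 in the others) and Cebpe (1.69 CPM, against 0 to 0.245). In progenitor-like cells Decoy 2 was low for Klf4 (97.0 CPM, against 144 to 152), next to 93.5 in PBS. In neutrophil-like cells Decoy 3 was high for Cebpg (40.3 CPM, against 24.1 to 25.9), and in the erythroid progenitor cluster Decoy 2 was high for Spi1 (11.7 CPM, against 3.77 to 5.05). A further 3 flags rest on 1 to 3 UMIs: Cebpe and Gfi1 in dendritic-like cells of Decoy 6 (2.09 CPM each, 0 in the others) and Cebpe in the erythroid progenitor cluster of Decoy 5 (0.156 CPM, 0 in the others).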

How the results depend on the processing

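The 7 lower members in Xist cells remained 7 under every alternative run, and of the recomputed log2 fold changes of single members 782 kept direction and side of the threshold, 22 newly passed it, 8 no longer did and 26 changed sign; the causes were not tested. Leaving out each library gave 7 to 7 members called between Xist and Y-linked cells, 0 to 7 over all kept cells (7 without Decoy 2), 0 to 1 in leukaemic cells, 0 to 2 in progenitor-like cells, 1 to 1 in B cell-like cells, 3 to 4 in erythroid cells and 0 to 0 in the others. DESeq2 called 6 members over all kept cells, 1 in progenitor-like cells (Cebpb), 1 in macrophage-like cells (Spi1), 2 in erythroid cells, 0 in B cell-like cells and 1 for the difference between leukaemic and progenitor-like cells (Cebpb). Scaling to library totals alone called 2 in erythroid cells, where it moved the median log2 fold change of all genes to 1.26, against 0.06. The stricter cell filter and resolution 1.0 each called 0 in B cell-like cells, and dropping the low-count filter called 2 for leukaemic against macrophage-like cells. Over the alternatives run, counts of all genes called went from 33 to 510 in leukaemic cells (108 as reported), 15 to 502 in progenitor-like cells (134), 0 to 807 in B cell-like cells (301), 0 to 869 in macrophage-like cells (0) and 0 to 2474 over all kept cells (0).

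Changes of sign lay mostly near 0. In leukaemic cells, Cebpg ran from -0.031 to 0.013 and Klf4 from -0.11 to 0.57 over left-out libraries, and Cebpg was 0.025 with the embryonic-globin cluster added, an alternative chosen after seeing the data. In macrophage-like cells, resolution 1.0 gave 0.37 for Cebpb, 0.17 for Cebpd, 0.13 for Spi1 and 0.46 for Klf4, and doublet removal -0.28 for Cebpe. In neutrophil-like cells, Cebpg was -0.0031 with DESeq2 size factors, -0.24 with library totals, -0.17 with doublet removal, -0.062 with the stricter filter, -0.049 at resolution 1.0 and -0.16 to 0.10 over left-out libraries, and Gfi1 was -0.064 with library totals and -0.071 to 0.27 over left-out libraries. Library totals moved the median of all genes there to -0.23. Cebpb in B cell-like cells was 0.039 with doublet removal and 0.50 at resolution 1.0, and in T cell-like cells -0.15 with doublet removal. For leukaemic against progenitor-like cells, Cebpe was -0.070 at resolution 1.0, Cebpg -0.018 with library totals and -0.051 with the stricter filter, and Klf4 0.048 with the stricter filter; against macrophage-like cells, Cebpe was -1.50 at resolution 1.0. The stricter filter left too few PBS cells to test macrophage-like and T cell-like cells. No paired analysis was possible because the PBS library carries no replicate number. With 1 PBS library, no value has a PBS replicate, and genes at a few UMIs, such as Gfi1 and Cebpa in leukaemic cells, are limited by depth.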

Other observations

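Klf4 in dendritic-like cells, which were too few to test in PBS, Decoy 2 and Decoy 3, was at 48.6, 40.0, 40.0 and 43.9 CPM in Decoy 2, Decoy 3, Decoy 5 and Decoy 6, from 22 to 83 cells each, and had 0 UMIs in the 46 PBS cells. A count of 0 there allows up to 10.5 CPM (3 counts in the library), and the ratio of summed Decoy to PBS levels, from 107 and 0 UMIs, had an exact 95% lower bound of 3.24, which covers counting error only. Median depth was 6250 to 23493 UMIs per cell in Decoy and 2728 in PBS. Markers of plasmacytoid dendritic cells summed to 1706 to 3904 CPM in Decoy and 1390 in PBS, those of conventional dendritic cells to 2796 to 5120 CPM in Decoy and 7836 in PBS, and those of monocytes to 1363 to 2143 CPM in Decoy and 761 in PBS. The part of this mix in the Klf4 value was not tested. Spi1 in the same cells was at 362 to 415 CPM in Decoy and 513 in PBS.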
